A study of Homo sapiens with 5 samples.

Results

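The genes that encode the DNA replication machinery were examined in ChIP-Seq peak lists of E2F1, MYC and Fra-1 from LM2 cells labelled as untreated, a subline of the breast cancer line MDA-MB-231 that spreads to the lung. The set is a list of 50 genes named by their function, out of 20098 protein-coding genes. The rule that lists them uses no peak value, but the genes and their roles were chosen with earlier results of these data known. Each factor had 1 library, 1 input DNA library served as the control for the 3 peak lists, and an EZH2 library is among the 5 samples but was not analysed here. Thus there is no replicate spread, and all values below describe these libraries. The libraries come from 1 cell line with no control condition, so they show where peaks were called and not whether a factor changed the expression of a gene. The question for each factor was whether a peak lay in a promoter, defined as 2 kb upstream to 2.5 kb downstream of any annotated transcriptional start site (TSS), and how strong it was.

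Replication starts when the origin recognition complex marks origins in G1 and CDC6 and CDT1 load the MCM2-7 helicase there. In S phase the kinase of CDC7 and DBF4 fires the origins, CDC45 and GINS activate the helicase, and polymerases, the PCNA clamp with its RFC loader, the RPA single-strand binding complex and the enzymes that join Okazaki fragments copy the DNA. E2F factors, released from RB at the end of G1, are textbook regulators of many of these genes. MYC binds E-boxes and promotes growth, and Fra-1 is a FOS-family subunit of AP-1, which binds TGACTCA-like sites.

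MACS2 used 18056168 tags for E2F1, 23853621 for MYC and 12931227 for Fra-1 after removing tags at the same position, against 10758036 for the input. The lists hold 36933, 4867 and 17320 peaks, respectively, so the share of all genes bound is given beside each count. Fold enrichment is the ratio of the fragment pileup at the summit to the local background, and the strongest promoter peak of a gene is the one with the largest fold enrichment.

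The sequences under the strongest E2F1 summits are shown because an E2F site was far more frequent there than at other bound genes. An E2F site was taken as TTTCCCGC, TTTCGCGC, TTTGCCGC or TTTGGCGC on either strand. The 5 genes with the largest E2F1 fold enrichment among those that had such a site within 50 bp of the summit were MCM2, GINS3, GINS1, ORC3 and MCM8. In the following 30-base stretches (hg19, written 5′ to 3′ on the strand that carries the site), capitals mark the E2F site.
MCM2, chr3:127317245-127317274, plus strand: cgtgaaccactTTTCGCGCgaaacctggtt
GINS3, chr16:58426359-58426388, minus strand: attgaaactcgTTTCCCGCgcccggggacg
GINS1, chr20:25388303-25388332, minus strand: ccgctccgcgcTTTGGCGCcgaacaaagct
ORC3, chr6:88299830-88299859, minus strand: tgcactcgggaTTTCCCGCgcgccctcgcg
MCM8, chr20:5931313-5931342, minus strand: ctaaattctttTTTGGCGCttcagtgatcc
The centre of the site lay 26 bp from the summit at MCM2, 14 bp at GINS3, 20 bp at ORC3 and 2 bp at MCM8, and at GINS1 it lay 5 bp to the other side. MCM2 held a pair of overlapping sites, 1 on each strand. In the canonical transcripts the sites of MCM2, GINS1 and MCM8 were in the 5′ UTR and those of GINS3 and ORC3 just upstream of it.

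The genes with a canonical E-box (CACGTG) near the MYC summit and those with an AP-1 site (TGACTCA or TGAGTCA) near the Fra-1 summit are shown for contrast, again with the site in capitals and all on the plus strand. They are all the replication genes with such a site within 50 bp of the summit of the respective factor, with the MYC E-boxes given before the Fra-1 sites.
DNA2, chr10:70231782-70231811: gccggcgcgttcCACGTGgggcccctcacc
MCM8, chr20:5931158-5931187: cggcaccgccccCACGTGttgcacgccgct
MCM2, chr3:127317231-127317260: gctttggtgggtCACGTGaaccacttttcg
GINS3, chr16:58400327-58400356: gtacacagccaTGACTCAgaaatgctgaca
TIPIN, chr15:66679925-66679954: gattgtgttccTGACTCAgaccagttagcg
POLD3, chr11:74347821-74347850: tcagaagggtaTGACTCAtcgagattgctt
At MCM2 the E-box and the E2F site lay side by side at the TSS, and the MYC and E2F1 summits were 2 bp apart. The E-box of MCM8 lay upstream of its TSS and its E2F site downstream, and the MYC and E2F1 summits there were 156 bp apart. The AP-1 sites of GINS3, TIPIN and POLD3 lay 26034 bp upstream, 30916 bp upstream and 44208 bp downstream of the canonical TSS, far from the E2F sites of GINS3 and POLD3.

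E2F1 had a promoter peak at all 50 replication genes. Of the other 20048 protein-coding genes 61.2% had one, so a peak alone sets the genes apart only in part. When the E2F1 list was cut to the 4867 peaks highest in −log10 q, as many as the MYC list holds, 41 of the 50 genes still had a promoter peak, against 25.5% of the others. The strongest peaks had a median fold enrichment of 39.1 (interquartile range 29.5 to 49.8), and those of the other bound genes 22.0 (13.3 to 32.4). Thus 44 of the 50 genes were above the median of the other bound genes, 32 above their 75th percentile and 21 above their 90th percentile. The pileup at the summit, which does not depend on the local background, had a median of 88 fragments at the replication genes and 46 at the others, and the peaks were longer (median 873 and 615 bp).

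**Figure D1:**
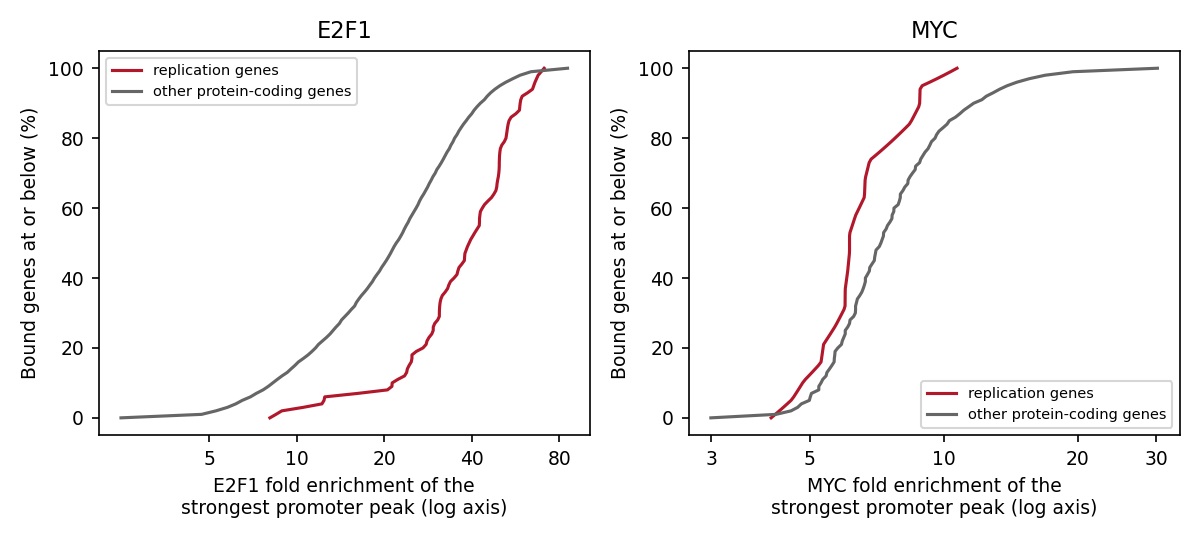
Cumulative share of bound genes (y axis, %) by the fold enrichment of the strongest promoter peak (x axis, ratio, log scale) for E2F1 and MYC, with replication genes in red and other protein-coding genes in grey. The E2F1 curve of the replication genes lies to the right of the others (medians 39.1 and 22.0), whereas the MYC curve lies to the left (6.14 and 7.22).

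The 5 largest E2F1 values belonged to RFC5 (fold enrichment 70.9, pileup 110), PCNA (67.6, 112), RFC2 (65.9, 94), MCM4 (64.6, 102) and MCM2 (59.2, 117). RFC2 and RFC5 are subunits of the clamp loader, which opens the PCNA ring, and MCM2 and MCM4 belong to the helicase ring. Their summits lay between 29 bp upstream and 10 bp downstream of the canonical TSS. The RFC5 peak spanned chr12:118454215-118455030 and the PCNA peak chr20:5099256-5101112, a length of 1857 bp. FEN1, the flap endonuclease of Okazaki fragments, and TIPIN, a fork protection protein, followed closely with 58.6 and 58.3.

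The 5 smallest values were those of GINS2 (fold enrichment 8.08, pileup 23), CHAF1B (8.89, 11), ORC4 (12.3, 35), ORC1 (12.5, 86) and POLD2 (21.2, 29). GINS2 belongs to the GINS complex, CHAF1B is the middle subunit of the histone chaperone CAF-1, and POLD2 is the small subunit of polymerase delta. The pileup of ORC1 was near the median of the set, and the background recovered from its pileup and fold enrichment was 5.97, the highest of the 50 genes (median 1.00, lowest 0.349). ORC1 was thus at percentile 22.6 of other bound genes by fold enrichment but at percentile 87.5 by pileup. PRIM2, the large primase subunit, was alike, with a fold enrichment of 21.3, a pileup of 105 and a background of 3.98. GINS2 and CHAF1B were low by both measures, at percentiles 20.3 and 3.81 by pileup.

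By role, the clamp and clamp loader genes (6 genes, 30.9 to 70.9) and the MCM2-7 genes (6 genes, 28.1 to 64.6) had median E2F1 fold enrichments of 51.8 and 49.2. The fork protection genes TIPIN and CLSPN, an adaptor for the activation of the checkpoint kinase CHK1, had a median of 53.9, and the Okazaki fragment genes FEN1, LIG1 and DNA2 one of 48.9. MCM8 and MCM10 (median 47.4), the 3 RPA genes (44.4), CDC45 and the GINS genes (41.0), and CDC7 and DBF4 (40.6) were intermediate. The licensing genes CDC6, CDT1 and GMNN, which encodes the CDT1 inhibitor geminin, had a median of 35.5, the 9 polymerase and primase genes 31.04 (21.2 to 50.3), the 6 origin recognition genes 28.4 (12.3 to 52.8) and the chromatin assembly genes CHAF1A, CHAF1B and ASF1B 24.0. All 12 role medians were above the median of other bound genes, but the ranges overlapped widely. For example, ORC3 reached 52.8, whereas ORC1 and ORC4 of the same complex were below the median of other bound genes.

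**Figure D2:**
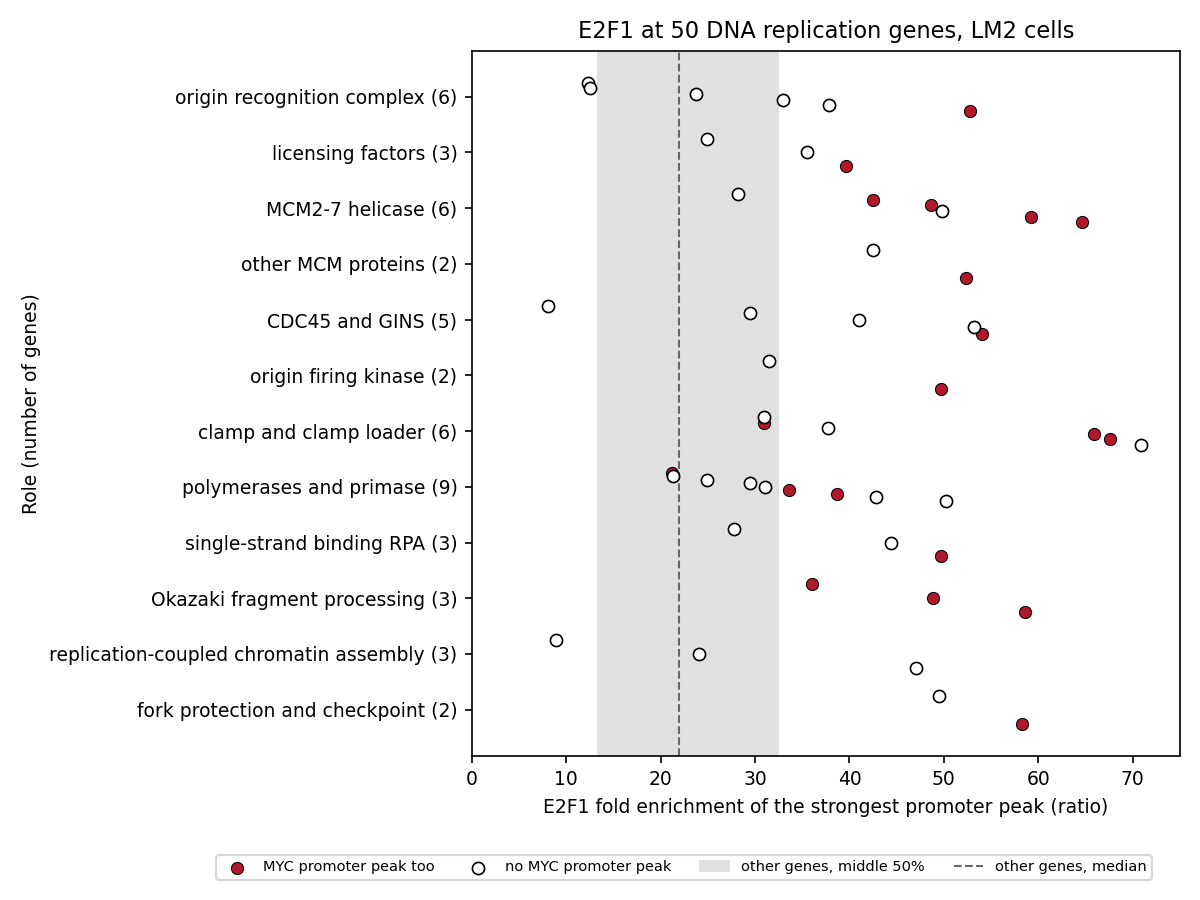
E2F1 fold enrichment of the strongest promoter peak (x axis, ratio) of each of the 50 genes, in rows by role, with filled points for genes that also had a MYC promoter peak. The grey band covers the middle 50% of other bound genes (13.3 to 32.4) and the dashed line their median (22.0), with 44 genes to the right of the line and the 3 Okazaki fragment genes all filled.

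The E2F1 summits were close to the TSS. The median distance of the strongest summit to the canonical TSS was 38.5 bp, against 170 bp for other bound genes, and 46 of the 50 summits (92%) were within 250 bp, against 59.4%. Related groups described below had similar values. The median was 27.5 bp at mitosis and kinetochore genes, 32 bp at ribosomal protein genes and 50 bp at further replication genes. In these groups 90.9%, 94.8% and 80% of the summits, respectively, were within 250 bp. Relative to the canonical transcript of each of the 50 genes, 24 summits were in the 5′ UTR, 22 upstream of that transcript, 2 in coding exons and 2 in introns. The 4 exceptions over 250 bp were CDT1, CHAF1B, CHAF1A and RPA3. CDT1, the licensing factor degraded in S phase, had 7 promoter peaks, the most of any of the genes, and its strongest peak lay 295 bp upstream with a second one, of 18.7, 16 bp downstream of the TSS. The strongest peak of CHAF1B lay 491 bp downstream in an intron. The peak of RPA3 (fold enrichment 44.4) lay 78179 bp from the annotated canonical TSS, at an alternative TSS 149 bp away.

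**Figure D3:**
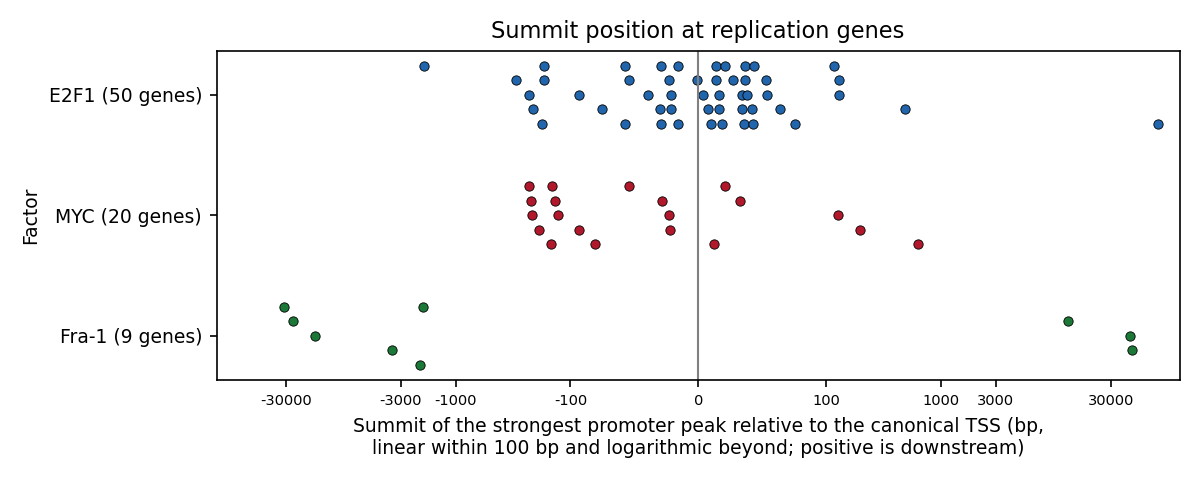
Position of the strongest promoter summit relative to the canonical TSS (x axis, bp, linear within 100 bp and logarithmic beyond, positive is downstream) for each bound replication gene, with 1 row per factor and points spread vertically for visibility. E2F1 (50 genes) and MYC (20 genes) summits cluster near the TSS, whereas none of the 9 Fra-1 summits lies within 1000 bp.

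An E2F site was present within 50 bp of the strongest E2F1 summit at 15 of the 50 genes (30%), against 3.48% of other bound genes and 5.64% of those above the 75th percentile of fold enrichment. The GC content within 50 bp of the summit had the same median in both groups (64.4%). The offset of the site from the summit had a median size of 15 bp and was at most 37 bp. The word TTTCCCGC was found at 8 genes, TTTGGCGC at 5 and TTTCGCGC at 2, counting the site nearest to each summit. With the 7-letter core that lacks the leading T, the counts were 26 genes (52%) and 11.7%. By role the site was found at 3 of the 6 MCM2-7 genes (MCM2, MCM5 and MCM6), at GINS1, GINS2 and GINS3, and at the polymerase genes POLD1, POLD3 and POLE, but at none of the Okazaki fragment or chromatin assembly genes. ORC3, CDC6, MCM8, RFC3, RPA3 and CLSPN made up the rest.

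The site did not follow the strength of the peak gene by gene. Genes with the site had a median E2F1 fold enrichment of 44.4 (8.08 to 59.2, n = 15 genes) and those without 35.5 (8.89 to 70.9, n = 35 genes), with overlapping ranges. Of the 5 strongest genes 4 lacked the 8-letter site at the summit, although RFC5, RFC2 and MCM4 held the 7-letter core there, and GINS2, the weakest, held the 8-letter site.

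Other motifs differed less. CCAAT, the site of NF-Y, lay within 50 bp of the E2F1 summit at 13 genes (26%, others 10.6%). The GC box GGGCGG was found at 22% (others 24.3%), the CHR element TTTGAA of late cell-cycle genes at 6% (3.13%), the E-box at 2% (3.59%) and the AP-1 site at none (3.16%). In the sequence from 250 bp before to 50 bp after the canonical TSS, which does not depend on the peaks, the E2F site was present at 23 of the 50 genes (46%) and 4.29% of 19769 other genes. CCAAT was found there at 56% and 35.9%, the E-box at 18% and 8.75%, and the CHR element, in contrast to the summits, at 6% and 11.5%, respectively. All motifs were searched on both strands, and E-box and AP-1 words read the same or nearly so on either strand.

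**Figure D4:**
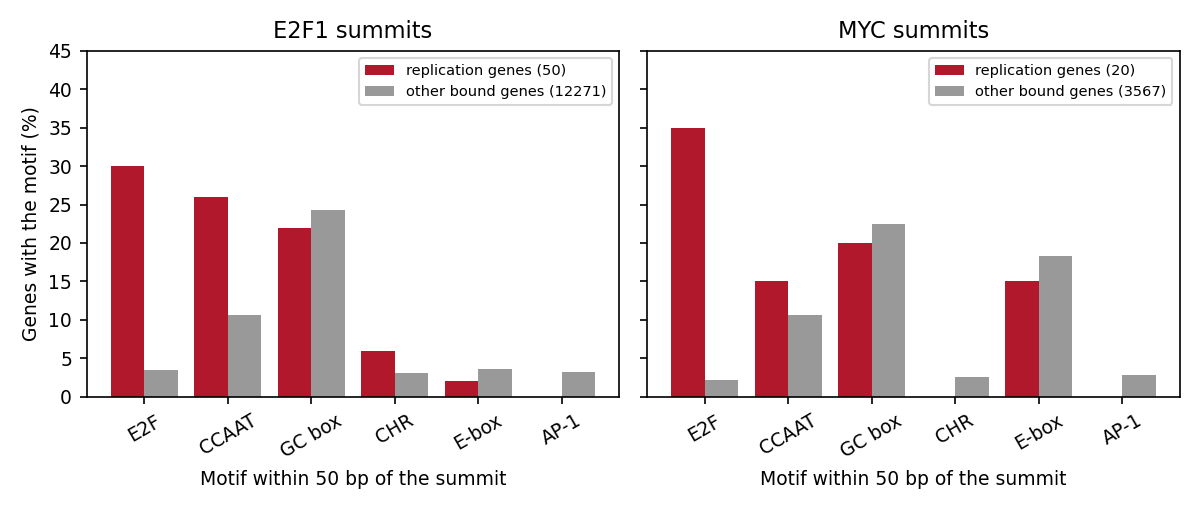
Share of bound genes (y axis, %) with each motif within 50 bp of the strongest promoter summit of E2F1 (left) and MYC (right), for replication genes (red) and other bound genes (grey). The E2F site is the bar that differs most, at 30% against 3.48% for E2F1 summits and 35% against 2.13% for MYC summits.

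MYC had a promoter peak at 20 of the 50 replication genes (40%), against 17.8% of other protein-coding genes. E2F1 was present at all 20, and 17.7% of other genes had peaks of both factors. Thus among E2F1-bound genes the shares were 40% and 29.0%. The MYC peaks were weak. Their fold enrichment was 4.09 to 10.7 with a median of 6.14, whereas other MYC-bound genes had a median of 7.22, and 15 of the 20 were below that value. The pileup was 7 to 16 fragments, and at a −log10 q of at least 5 a MYC peak was kept at 9 of the 20 genes (45%), against 71.3% of other MYC-bound genes. This left a MYC peak at 18% of all 50 replication genes and 12.7% of all other genes. At this cut 2544 other genes kept a MYC peak, and 12271 other genes had an E2F1 peak. On the base of E2F1-bound genes the replication genes thus no longer had the larger share.

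The 8 largest MYC values were found at DNA2 (fold enrichment 10.7, pileup 16), TIPIN (8.84, 16), POLE2 (8.82, 13), LIG1 (8.39, 11), MCM3 (7.61, 15), MCM8 (6.81, 12), MCM7 (6.65, 8) and PCNA (6.63, 9). DNA2 is a nuclease and helicase that trims long flaps, LIG1 seals nicks and POLE2 is a subunit of polymerase epsilon. The first 5 of these were above the median of other MYC-bound genes and none was above their 90th percentile. The other 12 genes lay between 4.09 (RPA2) and 6.33 (ORC3), among them MCM2 (6.14), MCM4 (6.14), FEN1 (5.29) and RFC2 (4.56). By role, MYC peaks were found at all 3 Okazaki fragment genes, at 4 of the 6 MCM2-7 genes (MCM2, MCM3, MCM4 and MCM7), at 3 of the 6 clamp and clamp loader genes and 3 of the 9 polymerase and primase genes, at 1 gene in each of 7 other roles, and at none of the 3 chromatin assembly genes.

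**Figure D5:**
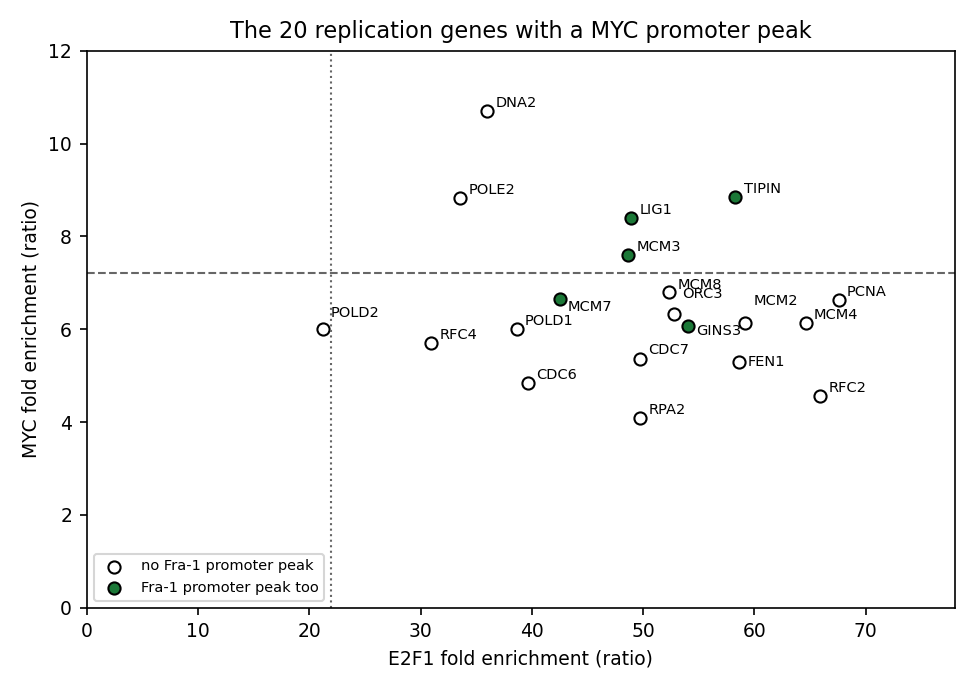
MYC fold enrichment (y axis, ratio) against E2F1 fold enrichment (x axis, ratio) of the 20 replication genes with a MYC promoter peak, with filled points for the 5 genes that also had a Fra-1 promoter peak. The dashed line is the MYC median (7.22) and the dotted line the E2F1 median (22.0) of other bound genes, and 5 genes lie above the former.

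The MYC summits lay within E2F1 peaks. The strongest MYC peak overlapped an E2F1 peak at all 20 genes, as it did at 98.2% of other MYC-bound genes. Its summit was within 250 bp of the strongest E2F1 summit at 18 of the 20 (90%, median 146.5 bp, range 1 to 692 bp), against 64.4% of other genes with both peaks. The summits were 1 bp apart at TIPIN, 2 bp at MCM2 and 17 bp at LIG1. The genes with a MYC peak had a median E2F1 fold enrichment of 49.7 (21.2 to 67.6) and those without 31.2 (8.08 to 70.9). The same order was seen at other genes (medians 32.0 and 18.4). E2F sites were found at more of the MYC summits than E-boxes. An E2F site lay within 50 bp at 7 of the 20 genes (ORC3, CDC6, MCM2, MCM3, MCM4, MCM7 and GINS3, 35%), against 2.13% of other MYC-bound genes, and an E-box at DNA2, MCM8 and MCM2 (15%), against 18.3%. MCM2 was the gene with both.

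Fra-1 had a promoter peak at 9 replication genes (18%), against 13.2% of other protein-coding genes, and 12.3% of the latter had Fra-1 and E2F1 peaks. Among E2F1-bound genes the shares were 18% and 20.1%, so Fra-1 peaks were not more frequent at replication genes on that base. The fold enrichments were 15.1 at GINS3, 15.0 at TIPIN, 14.6 at LIG1, 9.91 at CHAF1A, 8.97 at MCM7, 8.05 at MCM3, 6.81 at POLD3, 6.28 at PRIM2 and 6.08 at GINS1. Their median of 8.97 was near that of other Fra-1-bound genes (8.38), and none was above the 90th percentile of the latter.

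None of the 9 Fra-1 summits lay at the main start of its gene. The nearest were at CHAF1A, 1909 bp upstream, and MCM7, 2041 bp upstream of the canonical TSS, and the other 7 were over 2500 bp away. Of these 7 peaks, that of GINS1 lay 28 bp from an alternative start of the gene, and the others were only within the promoter window of one, at 441 bp (LIG1) to 1819 bp (POLD3). At other Fra-1-bound genes 18.1% of the strongest summits were within 250 bp of the canonical TSS. With the canonical TSS as the only start, Fra-1 peaks remained at 2 of the 50 genes, CHAF1A and MCM7, against 7.21% of other genes, and with windows of 1 kb either side of any TSS they were at 4, against 9.86%. Thus Fra-1 peaks were more frequent at replication genes in the wide window and less frequent in both of these. The replication genes had a median of 7 distinct start sites, against 5 at other protein-coding genes and 7 at those with an E2F1 peak. Shares counted at any TSS and set against all other protein-coding genes thus rest on unequal numbers of windows per gene. The summits of GINS1, TIPIN, CHAF1A and MCM7 also fell into the promoter of another gene, and the nearest canonical TSS was that of ABHD12 at 201 bp, MAP2K1 at 670 bp, SH3GL1 at 184 bp and AP4M1 at 1795 bp, respectively. The LIG1 peak lay in an intron, 46280 bp downstream of the canonical TSS, and those of MCM3 and POLD3 lay in introns too. The PRIM2 peak lay upstream of the gene. That of GINS3 lay upstream of the canonical TSS but inside the gene as annotated with all its transcripts. Of the 9 peaks 6 overlapped an E2F1 peak (66.7%), against 79.6% of other Fra-1-bound genes, and 3 held an AP-1 site within 50 bp of the summit (33.3%), against 50.4% of other Fra-1-bound genes.

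All 3 factors had promoter peaks at 5 genes, MCM3, MCM7, GINS3, LIG1 and TIPIN, which is 10% of the set against 4.66% of other genes and 7.61% of other E2F1-bound genes. With the canonical TSS only, the order was the opposite, with 1 gene (2%) against 2.78%. E2F1 and MYC without Fra-1 were found at 15 genes, and E2F1 and Fra-1 without MYC at GINS1, PRIM2, POLD3 and CHAF1A. E2F1 alone was found at 26 genes. Of the 20048 other protein-coding genes, 12271 had an E2F1 peak, and these combinations were found at 2624, 1537 and 7176, respectively. Among E2F1-bound genes, E2F1 and MYC without Fra-1 was thus more frequent at replication genes. E2F1 and Fra-1 without MYC, and E2F1 alone, were somewhat less frequent there than at other E2F1-bound genes. The first of these rests on 4 genes. Set against all 20048 other genes, E2F1 alone was more frequent at replication genes, and E2F1 and Fra-1 without MYC was about equally frequent. At 4 of the 5 genes with all factors no base was covered by peaks of all of them. At GINS3 the E2F1 and MYC summits lay 16 bp upstream and 21 bp downstream of the canonical TSS and the Fra-1 summit 26029 bp upstream. At MCM7 the E2F1 and MYC summits lay 43 bp downstream and 145 bp upstream, and the Fra-1 summit 2041 bp upstream. Only at TIPIN did peaks of the 3 factors share bases, in 65 bp at chr15:66679803-66679867, which is 30 kb upstream of the canonical TSS of TIPIN and nearest to that of MAP2K1. There the E2F1 peak had a fold enrichment of 28.8, MYC 6.94 and Fra-1 15.0.

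MCM2, MCM10, CHAF1A and FEN1 are also among the Fra-1-dependent prognostic genes of the study. E2F1 values were 59.2 at MCM2, 42.5 at MCM10, 24.0 at CHAF1A and 58.6 at FEN1. MYC had peaks at MCM2 and FEN1, and Fra-1 had one at CHAF1A, the large subunit of CAF-1, but at none of the other 3. The Fra-1 and E2F1 summits of CHAF1A were 13 bp apart in chr19:4400604-4400867, close to the TSS of SH3GL1 (197 bp from the E2F1 summit). The Fra-1 summit was 184 bp from the TSS of SH3GL1 and 1909 bp from that of CHAF1A. SH3GL1 is itself among the prognostic genes of the study, so this peak cannot be assigned to CHAF1A alone. A second E2F1 peak of CHAF1A, 328 bp upstream of its own TSS, had a similar fold enrichment of 22.7 and a larger pileup (50 against 33).

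Many of these promoters are shared. A protein-coding gene on the opposite strand started within 1 kb of the canonical TSS, pointing away, at 13 of the 50 genes (26%), against 9.35% of other protein-coding genes and 14.4% of those with an E2F1 peak. The pairs were ORC1 with PRPF38A, ORC3 with RARS2, ORC4 with MBD5, ORC6 with VPS35, MCM4 with PRKDC, MCM7 with AP4M1, MCM8 with TRMT6, CDC45 with UFD1, DBF4 with SLC25A40, POLE with PXMP2, RPA1 with SMYD4, FEN1 with TMEM258 and LIG1 with ZSWIM9. In the related groups described below, 28% of the further replication genes had such a partner. The share was 18.2% at the mitosis and kinetochore genes and 17.7% at the ribosomal protein genes. A peak at such a start cannot be assigned to 1 of the genes. For ORC1 the E2F1 summit lay 212 bp from its own canonical TSS and 33 bp from that of PRPF38A. In all, the strongest E2F1 summit of 46 genes was nearest to the canonical TSS of the gene itself, and the exceptions were ORC1, RPA3, LIG1 and CHAF1A.

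Peaks with a summit in the gene body but outside all promoter windows of the gene were fewer. E2F1 had one at 5 of the 50 genes (10%), against 17.5% of other genes, and Fra-1 at 4 (8%), against 17.3%. MYC had one at none, against 2.41%, a share at which few of 50 genes would have one. The replication genes were somewhat longer (median 35316.5 and 27220 bp). The windows left out lay around a median of 7 start sites per gene, against 5 at other genes. This was not allowed for, and the counts are small.

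The genes were then set beside related groups. Of 25 further replication genes, such as topoisomerases, RNase H2 subunits and helicase accessory factors, all 25 had an E2F1 promoter peak, with a median fold enrichment of 30.3, 10 had a MYC peak and 1, POLD4, a Fra-1 peak. The largest E2F1 values among them were 59.8 at TOPBP1, 58.9 at RNASEH2C and 53.9 at ATAD5, and 3 of the 25 (12%) held the E2F site at the summit. Among 44 mitosis and kinetochore genes, which act later in the cell cycle, all 44 had an E2F1 peak (median 37.9) and 17 a MYC peak. Their E2F1 summits held the E2F site in 2.27%, CCAAT in 47.7% and the CHR element in 40.9%, compared with 30%, 26% and 6% at the replication genes. Thus both groups had strong E2F1 peaks, and the shares of motifs under them differed.

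Ribosomal protein genes differed in MYC. Of 79 genes 77 had an E2F1 promoter peak (median 44.2) and 75 a MYC peak, with a median MYC fold enrichment of 10.9 against 6.14 at the replication genes. At the further replication genes and the mitosis and kinetochore genes this median was 6.61 and 6.02, respectively, so weak MYC peaks were not particular to the 50 genes. The E2F site lay at 1.30% of their E2F1 summits.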

How the data were processed

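ChIP-Seq peak lists of E2F1, MYC and Fra-1 in LM2 cells were analysed, 1 library each. Per the labels and methods, the authors used Trimmomatic 0.27 for trimming and Bowtie 0.12.5 for alignment to masked hg19, kept uniquely mapping reads, removed duplicates and called peaks per library with MACS2 2.0.10.20120913 (q cutoff 0.01) against 1 input library. The deposited signal is the fragment pileup at the summit, the deposited fold enrichment is its ratio to the local background, and the p- and q-values are deposited as −log10 values. With 1 library per factor no test was made, and values describe the libraries. Local background was computed as pileup plus 1, divided by fold enrichment, minus 1, and is approximate.

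TSS came from GENCODE 44 mapped to GRCh37 (chromosomes 1 to 22 and X). The deposited lists name no genes, and all 50 symbols matched 1 protein-coding gene each. A peak was in a promoter if it overlapped the window by at least 1 bp. Members, role lists and comparison lists were chosen with earlier results of these data known. Genes named are those with the 5 largest and 5 smallest E2F1 and the 8 largest MYC fold enrichments, all with Fra-1 or all factors, and the study's prognostic genes. Other genes named, such as PRIM2, were chosen after their values were seen. Sequences were read from GRCh37 and shown as 30 bases, since most longer stretches reach into a UTR, and genes on chromosome 8 were left out.

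The alternatives were other peak thresholds, peak numbers, windows, start sites, strongest-peak rules, summits and motifs. On simulated data, 157 of 157 planted genes and 500 of 500 planted E2F sites were recovered. Python 3.11.15, numpy 2.4.6, pandas 2.3.3 and matplotlib 3.10.9 were used.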

Additional observations from a re-analysis of the deposited data

How the results depend on the processing

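Of 49 recomputed values, 39 stayed within 1.5 times the main value. The order against all other protein-coding genes changed in 3 cases, where the share of replication genes became the lower one. These were Fra-1 within 1 kb of a TSS, and Fra-1 and all 3 factors with the canonical TSS only. Medians were judged by the same factor as counts, since there were no replicates. E2F1 promoter peaks were found at 41 to 50 genes and their median fold enrichment was 38.6 to 42.8 under all alternatives. The lowest count came from equal numbers of peaks. With that setting the medians of replication genes and other bound genes were closer, at 42.8 and 34.5. Under the other settings the median of other bound genes was 21.9 to 22.3. MYC genes fell from 20 to 9 at a −log10 q of at least 5. Genes with Fra-1 were 3 with equal numbers of peaks, 4 within 1 kb of a TSS and 2 with the canonical TSS only, against 3.42%, 9.86% and 7.21% of other genes. Genes with all 3 factors were 3, 2 and 1 under these settings (0.848%, 3.65% and 2.78% of other genes) and 3 with protein-coding transcripts only (3.75%). The 7-letter E2F core was found at 26 summits in place of 15. Peak midpoints lay 60.5 bp from the nearest TSS in the median, against 27.5 bp for summits. The smaller counts come with fewer peaks, narrower windows or fewer start sites. No paired analysis was possible because each factor had 1 library. MYC pileups of 7 to 16 fragments limit what can be seen at weak sites.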
